A study of Mus musculus with 9 samples.

Results

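Ptgr1, Dnajc25, Gng10 and Ugcg are 4 protein-coding genes that follow closely on one another on mouse chromosome 4. They were picked because each of them was lower in MLL-AF9 leukemias that had lost Af10 than in those that kept it. The members are the probe sets whose annotation gave 1 of these 4 genes as the only gene symbol, which made 7 of the 45101 probe sets on the array: 1 each for Ptgr1, Dnajc25 and Gng10 and 4 for Ugcg. The annotation held 0 probe sets that named a member together with another gene. The 4 Ugcg probe sets read the same gene in the same RNA and are not independent of one another. Because the difference between deleted and floxed leukemias chose these genes, it is described here without a test.

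Af10, the product of Mllt10, is a partner of the histone methyltransferase DOT1L. The Af10 deleted leukemias (3 arrays, replicates 4 to 6) came from primary MLL-AF9 leukemias homozygous for a floxed Af10 allele, transduced with a retroviral tdTomato vector that also expressed Cre, and grown in secondary recipient mice. The Af10 floxed leukemias (3 arrays, replicates 4 to 6) differed from them only in that the tdTomato vector (MIT) carried no Cre, so loss of Af10 and the presence of Cre cannot be told apart. The Hoxa9-Meis1 leukemias (3 arrays, replicates 1 to 3) were primary leukemias of cells given Hoxa9 and Meis1 and went unsorted, whereas tdTomato sorting was used for both MLL-AF9 groups. All mice had the strain background C57/BL6 X 129, and RNA came from bone marrow cells taken directly from leukemic mice. How many primary leukemias the arrays of a group stand for is not stated, so p-values reflect only how these arrays spread, and that spread may be partly technical.

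The 4 genes encode proteins of unlike function. Ptgr1 is an NADPH-dependent reductase that inactivates leukotriene B4 and the 15-oxo prostaglandins made by Hpgd, and it also reduces reactive alkenals. Ugcg is glucosylceramide synthase, which adds glucose to ceramide in the Golgi and so commits it to the glycosphingolipids of the plasma membrane. Gng10 is a gamma subunit of heterotrimeric G proteins, which pass signals from receptors such as those for chemokines. Dnajc25 is a J-domain protein of DnaJ family C, a class of partners of Hsp70 chaperones.

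Expression was read on 1-colour Affymetrix arrays as 1 intensity per probe set, and all levels below are log2(intensity + 1) with the SD over 3 arrays. Median intensities of the 9 arrays lay between 146 and 156, and no array stood apart from its group over all probe sets (r of 0.98 to 0.99 within groups, across probe sets, which are not independent). The 9 probe sets of Y-linked genes (Kdm5d, Eif2s3y, Uty and Ddx3y) lay between 2.97 and 4.71 and were taken as a gauge of background. Every member value was above that range, the lowest being 5.53 for 1 Ugcg probe set in a deleted leukemia, so no member was lost to a filter. That probe set, 1439863_at, read 5.53 to 5.74 in deleted leukemias, below the group means of the erythroid marker Hba-a1 (6.26 to 6.29). The size of its fall is uncertain at so dim a level. The 4 probe sets of Mllt10, the targeted gene, were lower in deleted leukemias by 0.76 to 1.05 on the log2 scale and passed at a limma adjusted p under 0.05, as 3.76% of all probe sets did in that direction. For 2 of them the call held whichever array was left out (the others passed in 5 and 3 of 9 such fits, both ending without deleted replicate 4 or 5 or floxed replicate 4 or 6, and 1 also without deleted replicate 6 or Hoxa9-Meis1 replicate 2, with limma adjusted p up to 0.0974). Which part of Mllt10 was floxed is not stated, so these probe sets may lie outside it. The RNA was from bulk cells, where fewer cells of a type and less RNA per cell cannot be told apart.

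Since the 4 genes moved together, the 250 bases before each of their annotated starts are shown, from the RefSeq promoter table of build GRCm38.p6, which held all 4. Ptgr1 is read from the minus strand and the other 3 genes from the plus strand. Capitals mark matches to any of 9 motifs searched on both strands: the TATA box TATAAA, the GC box GGGCGG, the CCAAT box CCAAT, the E-box CACGTG, the cAMP response element core TGACGT, the antioxidant response element core TGACNNNGC, the Meis site TGACAG, the Hox-Pbx site TGATTNAT and the Ets site CCGGAAG. Matches of different motifs overlapped nowhere in these 4 windows.
Ptgr1, chr4:58987079-58987328, minus strand: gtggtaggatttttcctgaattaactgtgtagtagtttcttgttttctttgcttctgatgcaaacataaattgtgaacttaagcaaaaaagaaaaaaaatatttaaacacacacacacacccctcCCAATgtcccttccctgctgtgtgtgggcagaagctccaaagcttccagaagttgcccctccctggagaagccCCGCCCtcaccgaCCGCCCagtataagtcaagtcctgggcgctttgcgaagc
Dnajc25, chr4:59002943-59003192, plus strand: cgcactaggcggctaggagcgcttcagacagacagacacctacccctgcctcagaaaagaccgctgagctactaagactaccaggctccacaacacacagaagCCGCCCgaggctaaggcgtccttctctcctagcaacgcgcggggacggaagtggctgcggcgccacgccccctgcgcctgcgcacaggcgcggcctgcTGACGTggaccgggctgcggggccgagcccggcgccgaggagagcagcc
Gng10, chr4:59034906-59035155, plus strand: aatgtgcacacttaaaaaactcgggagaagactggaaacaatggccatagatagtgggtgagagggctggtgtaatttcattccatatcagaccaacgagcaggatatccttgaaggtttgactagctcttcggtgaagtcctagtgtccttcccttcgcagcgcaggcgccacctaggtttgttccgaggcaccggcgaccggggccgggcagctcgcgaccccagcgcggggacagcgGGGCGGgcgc
Ugcg, chr4:59189300-59189549, plus strand: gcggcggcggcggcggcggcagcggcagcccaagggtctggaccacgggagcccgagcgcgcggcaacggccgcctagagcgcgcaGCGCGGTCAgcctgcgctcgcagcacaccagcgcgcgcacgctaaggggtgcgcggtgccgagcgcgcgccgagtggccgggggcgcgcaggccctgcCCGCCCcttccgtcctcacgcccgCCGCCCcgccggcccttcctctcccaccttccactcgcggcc

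The GC box was the only motif found in all 4 windows, with 2 matches before Ptgr1, 1 before Dnajc25, 1 before Gng10 and 2 before Ugcg. It also stands in 32.7% of 32841 promoters of the same length. The Ptgr1 window further held a CCAAT box (33.9% of promoters), the Dnajc25 window a cAMP response element core (6.47%) and the Ugcg window an antioxidant response element core (10.2%). The letters of the Meis site (15.9% of promoters), the Hox-Pbx site (2.83%), the TATA box (12.4%), the E-box (6.02%) and the Ets site (6.91%) were in none of the 4 windows. Base composition differed widely: GC content was 46.4% before Ptgr1, 58% before Gng10, 68.4% before Dnajc25 and 80.4% before Ugcg, against a median of 52.4% over all promoters. The same order held for CpG dinucleotides, with 5, 18, 25 and 43 in the window.

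Ptgr1, the prostaglandin and leukotriene reductase gene, had the smallest difference after deletion of the 4 genes, and after deletion its level overlapped that in Hoxa9-Meis1 leukemias. It stood at 11.62, 11.62 and 11.38 in deleted replicates 4, 5 and 6, at 12.40, 12.61 and 12.62 in floxed replicates 4, 5 and 6, and at 11.47, 11.21 and 11.05 in Hoxa9-Meis1 replicates 1, 2 and 3. All 3 floxed arrays were above all 6 others, and the deleted and Hoxa9-Meis1 arrays overlapped. The mean was 12.55 ± 0.12 in floxed and 11.54 ± 0.14 in deleted leukemias, a difference of -1.01 (SE 0.14), or 2.01-fold lower after deletion. Against Hoxa9-Meis1 leukemias (11.24 ± 0.21), floxed leukemias were 2.47-fold higher (difference 1.30, SE 0.14, limma adjusted p = 0.00115), and this call held whichever single array was left out. Deleted leukemias differed from Hoxa9-Meis1 by 0.29 (SE 0.14, 95% interval -0.03 to 0.61, limma adjusted p = 0.216), which did not pass.

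Gng10, the G protein gamma subunit gene, took 3 separate levels. Its values were 11.48, 11.32 and 11.04 in deleted, 12.54, 12.75 and 12.52 in floxed and 11.89, 12.04 and 12.10 in Hoxa9-Meis1 leukemias. No 2 groups overlapped, with Hoxa9-Meis1 between the MLL-AF9 groups. The difference between deleted (11.28 ± 0.22) and floxed leukemias (12.60 ± 0.13) was -1.32 (SE 0.14). Deleted leukemias were 1.65-fold lower than Hoxa9-Meis1 (12.01 ± 0.11; difference -0.73, SE 0.14, limma adjusted p = 0.00961), also without any single array. Floxed leukemias were 1.51-fold higher than Hoxa9-Meis1 (difference 0.60, SE 0.14, limma adjusted p = 0.0322). That call ended without deleted replicate 5 (limma adjusted p = 0.0511), floxed replicate 4, 5 or 6 (0.0612, 0.0929 and 0.057) or Hoxa9-Meis1 replicate 1 or 2 (0.123 and 0.0884).

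Dnajc25, the J-domain protein gene, showed the largest difference after deletion and the widest spread. It was at 7.38, 6.83 and 7.41 in deleted, 8.85, 10.24 and 8.65 in floxed and 8.01, 8.48 and 8.30 in Hoxa9-Meis1 leukemias. The 3 groups did not overlap, but floxed replicate 5 stood far above the other floxed arrays. The mean was 7.21 ± 0.33 in deleted, 8.26 ± 0.24 in Hoxa9-Meis1 and 9.24 ± 0.86 in floxed leukemias, and deleted leukemias were 4.11-fold lower than floxed (difference -2.04, SE 0.38). Without floxed replicate 5 that difference was -1.54. Neither comparison with Hoxa9-Meis1 passed: the floxed leukemias differed from it by 0.98 (SE 0.38, 95% interval 0.13 to 1.84, limma adjusted p = 0.152) and the deleted leukemias by -1.06 (SE 0.38, 95% interval -1.91 to -0.20, limma adjusted p = 0.0997). Without floxed replicate 5, whose spread the fit shares across groups, the deleted leukemias were lower than Hoxa9-Meis1 (limma adjusted p = 0.0103), while the floxed difference became 0.49 (0.261). The deleted leukemias were also lower than Hoxa9-Meis1 in a fit of those 2 groups alone (limma adjusted p = 0.0181) and with array weights (0.0328).

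Ugcg, the glucosylceramide synthase gene, was read by 4 probe sets, and in all of them the floxed leukemias were near Hoxa9-Meis1 and the deleted leukemias below both. The brightest, 1435133_at, was at 8.93, 8.65 and 8.48 in deleted, 9.68, 10.20 and 9.91 in floxed and 9.30, 9.78 and 9.56 in Hoxa9-Meis1 leukemias. The dimmest, 1439863_at, was at 5.74, 5.58 and 5.53 in deleted, 6.59, 7.25 and 6.72 in floxed and 7.02, 7.27 and 6.91 in Hoxa9-Meis1 leukemias. In each of the 4, every deleted array was below every other array, and floxed and Hoxa9-Meis1 arrays overlapped. Ugcg was lower in deleted than in floxed leukemias by 1435133_at at -1.24 (SE 0.19, 2.37-fold lower), 1421268_at at -1.48, 1421269_at at -1.17 and 1439863_at at -1.24, so all 4 probe sets read a difference of over 1 log2 unit.

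Set against Hoxa9-Meis1 leukemias, Ugcg was lower in deleted leukemias by all 4 probe sets. The difference by 1435133_at was -0.86 (SE 0.19, 1.81-fold lower, limma adjusted p = 0.0156), and it did not pass without Hoxa9-Meis1 replicate 2 (limma adjusted p = 0.0617). The other 3 differed by -1.12 to -1.45 (limma adjusted p between 0.0012 and 0.0087) and passed without any single array. Floxed leukemias did not pass against Hoxa9-Meis1 by any Ugcg probe set: the differences ran from -0.21 to 0.39, and the 95% interval for 1435133_at was -0.03 to 0.81 (limma adjusted p = 0.249). The sign for 1421269_at, 0.05 in the fit of all arrays, turned to -0.12 without floxed replicate 5.

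**Figure D1:**
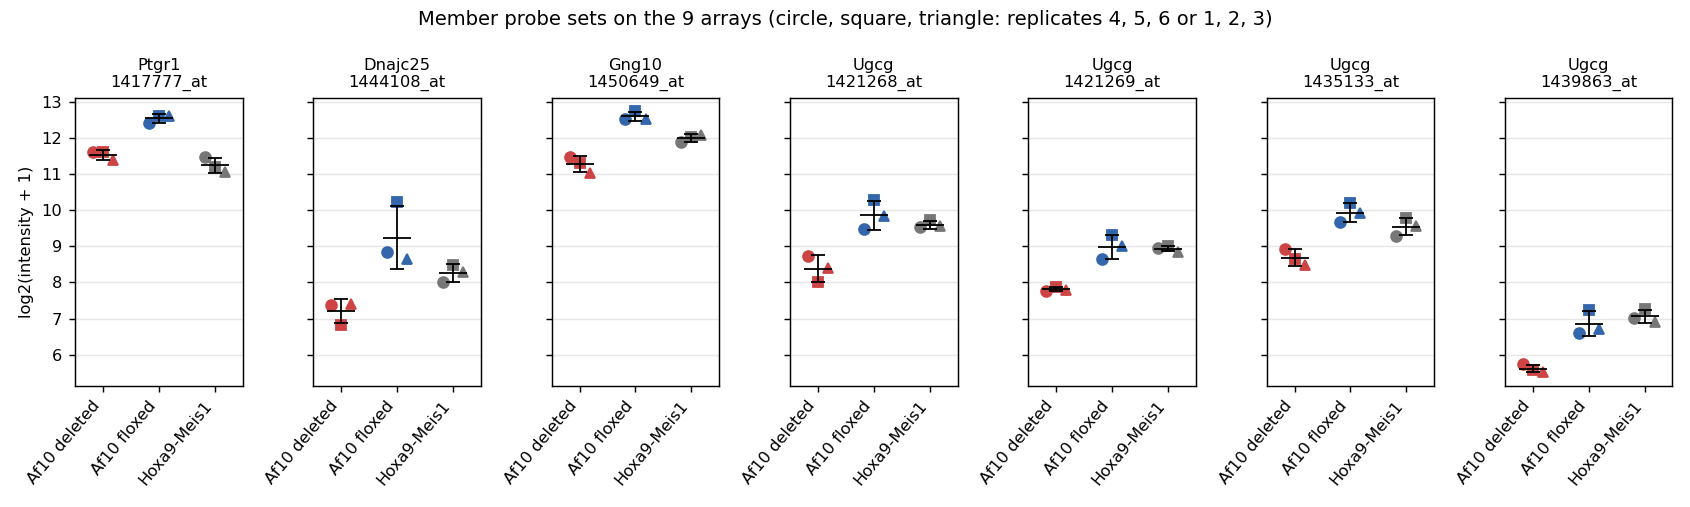
Levels of the 7 member probe sets as log2(intensity + 1) on the 9 arrays, 1 panel per probe set and 3 groups per panel; symbols are single arrays (circle, square and triangle are replicates 4, 5 and 6 of the MLL-AF9 groups and 1, 2 and 3 of Hoxa9-Meis1), and bars are the mean ± SD. Deleted arrays lie below floxed arrays in every panel, whereas Hoxa9-Meis1 arrays lie with the deleted arrays for Ptgr1, between the groups for Dnajc25 and Gng10, and with the floxed arrays for Ugcg.

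All 4 genes were thus lower after deletion, while the place of Hoxa9-Meis1 was not the same for all. By group means, Dnajc25, Gng10 and the brightest Ugcg probe set shared an order, from deleted through Hoxa9-Meis1 to floxed. For Ptgr1 the Hoxa9-Meis1 mean was the lowest, by a difference from deleted leukemias that did not pass. For Ugcg 1439863_at it was the highest, by a difference from floxed leukemias that did not pass. In all 7 probe sets the deleted and floxed arrays did not overlap, a property shared by 11.8% of all probe sets in that direction, and this count follows from how the genes were chosen. The median difference of the 4 genes, each by its brightest probe set, was -1.28, beside 0.06 for all 18194 genes. Floxed leukemias were called higher than Hoxa9-Meis1 for 2 of the 7 probe sets (Ptgr1 and Gng10) and lower for 0, where 4.94% of all probe sets were called higher and 9.01% in either direction. Of the 7, 3 were higher in floxed leukemias without overlap (13.9% of all probe sets). Deleted leukemias were called lower than Hoxa9-Meis1 for 5 of the 7 (Gng10 and the 4 of Ugcg, hence 2 of 4 genes), where 7.82% of all probe sets were called lower and 15% in either direction. Of the 7, 6 were lower in deleted leukemias without overlap (16.3% of all probe sets). Each of these comparisons shares 3 arrays with the contrast that chose the genes, so neither is independent of that choice. Markers of myeloid cells, T cells and macrophages, given with the cell type markers, also passed in these comparisons, and their part was not tested. Oncogene, transplant generation, vector and sorting differ together between Hoxa9-Meis1 and the MLL-AF9 groups and cannot be told apart.

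**Figure D2:**
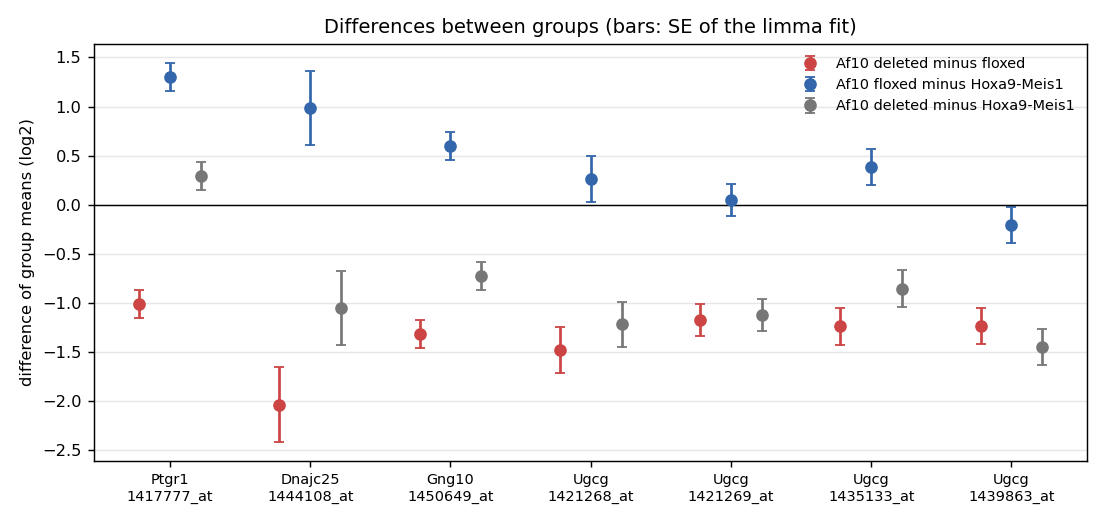
Differences of group means on the log2 scale for the 7 member probe sets in the 3 comparisons; points are limma estimates and bars their SE. The deleted minus floxed difference is between -1.01 and -2.04 for every probe set, while floxed minus Hoxa9-Meis1 falls from 1.30 for Ptgr1 to -0.21 for 1 Ugcg probe set.

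The neighbourhood was then described gene by gene, from the 15 annotated genes before Ptgr1 to the 15 after Ugcg in RefSeq order. Between Ptgr1 and Ugcg stand Dnajc25 and Gng10, next to each other, and 3 further annotated genes that no single-gene probe set read (Shoc1, Gm35527 and Rpsa-ps11). Of the 33 annotated genes that are not members, 15 were measured. In deleted against floxed leukemias 2 of these 15 fell and 0 rose by their brightest probe sets, with a median difference of 0.05, where 3.46% of all genes were called lower and 2.92% higher. The lower calls were Ecpas, the gene next but 1 before Ptgr1, and Snx30 beyond Ugcg. The members themselves had been picked from this stretch by the same contrast, so the share of the whole stretch that moved has no test here.

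Ecpas, whose product ties the proteasome to other cell structures, was lower by an amount like that of the members. By its brightest probe set, 1452122_at, Ecpas read 11.39, 11.35 and 11.93 in deleted, 12.59, 12.83 and 12.64 in floxed and 12.08, 12.17 and 12.01 in Hoxa9-Meis1 leukemias. By that probe set these were 3 levels without overlap and in the order seen for Gng10. The difference between deleted and floxed leukemias was -1.13 (SE 0.17, limma adjusted p = 0.00566), and its 4 probe sets all fell (-1.13 to -1.54), also without any single array. In floxed leukemias 3 of the 4 were higher than in Hoxa9-Meis1, by 0.95 to 1.25, 1436185_at not without Hoxa9-Meis1 replicate 1 (limma adjusted p = 0.0537), and the brightest did not pass (difference 0.60, limma adjusted p = 0.0559). Deleted leukemias differed from Hoxa9-Meis1 by -0.53 by the brightest (limma adjusted p = 0.0639), -0.09 by 1436185_at (0.848) and -0.25 by 1439127_at (0.377). Only 1456255_at passed there (-0.56, limma adjusted p = 0.0261), in 5 of the 9 fits that left out 1 array.

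By these probe sets, the lowered genes did not form an unbroken run. Zkscan16, a zinc finger gene between Ecpas and Ptgr1, averaged 6.11 ± 0.37 in deleted and 6.26 ± 0.30 in floxed leukemias (difference -0.15, limma adjusted p = 0.75). Its only probe set was dim in all 3 groups (6.09 ± 0.22 in Hoxa9-Meis1), near the erythroid marker Hba-a1 at 6.26 to 6.29. A fall of so dim a gene may not have been readable. The 4 measured genes that follow Ugcg (Gm12596, Susd1, Ptbp3 and Hsdl2) differed by 0.05 to 0.28 and did not pass. Next come E130308A19Rik (-0.34, limma adjusted p = 0.387) and Inip (-0.41, 0.238), lower by every probe set but not past the threshold by any. Slc46a2, the last measured gene, differed by -0.30 and did not pass. Txn1, Txndc8, Svep1 and Musk, well before Ptgr1, differed by 0.13 to 0.66 by their brightest probe sets and did not pass. Lpar1, a receptor gene for lysophosphatidic acid that lies before Ecpas, had a difference of -1.91 by its brightest probe set with wide spread (6.49 ± 0.80 in deleted, 8.40 ± 1.21 in floxed, limma adjusted p = 0.135). Another Lpar1 probe set, 1417143_at, fell (difference -1.20, limma adjusted p = 0.0489), a call that held only without floxed replicate 4 or Hoxa9-Meis1 replicate 3 and reached a limma adjusted p of 0.168 in the other 7 fits. The last Lpar1 probe set did not pass (-0.79, limma adjusted p = 0.111). Snx30, a sorting nexin gene, averaged 7.73 ± 0.15 in deleted and 8.45 ± 0.32 in floxed leukemias (difference -0.72, limma adjusted p = 0.0441), a call that held only without floxed replicate 4 among the 9 fits that left out an array and reached a limma adjusted p of 0.123 in the others, while its other probe set did not pass (-0.55, limma adjusted p = 0.227). Of the 15 measured neighbours, 3 were lower and 2 higher in deleted leukemias than in Hoxa9-Meis1 (6.03% and 8.9% of all genes). The lower were Snx30 (difference -1.25, limma adjusted p = 0.0019), Lpar1 (-2.29, 0.0489) and Slc46a2 (limma adjusted p = 0.0411). The higher were Svep1 and Susd1 (limma adjusted p = 0.0422 and 0.0193). By the brightest probe sets only the Snx30 call held whichever array was left out. All 3 Lpar1 probe sets were lower there, 1417143_at whichever array was left out (limma adjusted p = 0.0109).

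Over chromosome 4 as a whole, lower and higher calls were equal in number. Of its 1083 measured genes other than the members, 35 fell and 35 rose in deleted against floxed leukemias, which puts 3.23% lower beside 3.46% of all genes. The median of chromosome 4 genes on single arrays departed from the median of all genes by -0.02 to 0.03 (log2), and by -0.02 in floxed replicate 5.

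**Figure D3:**
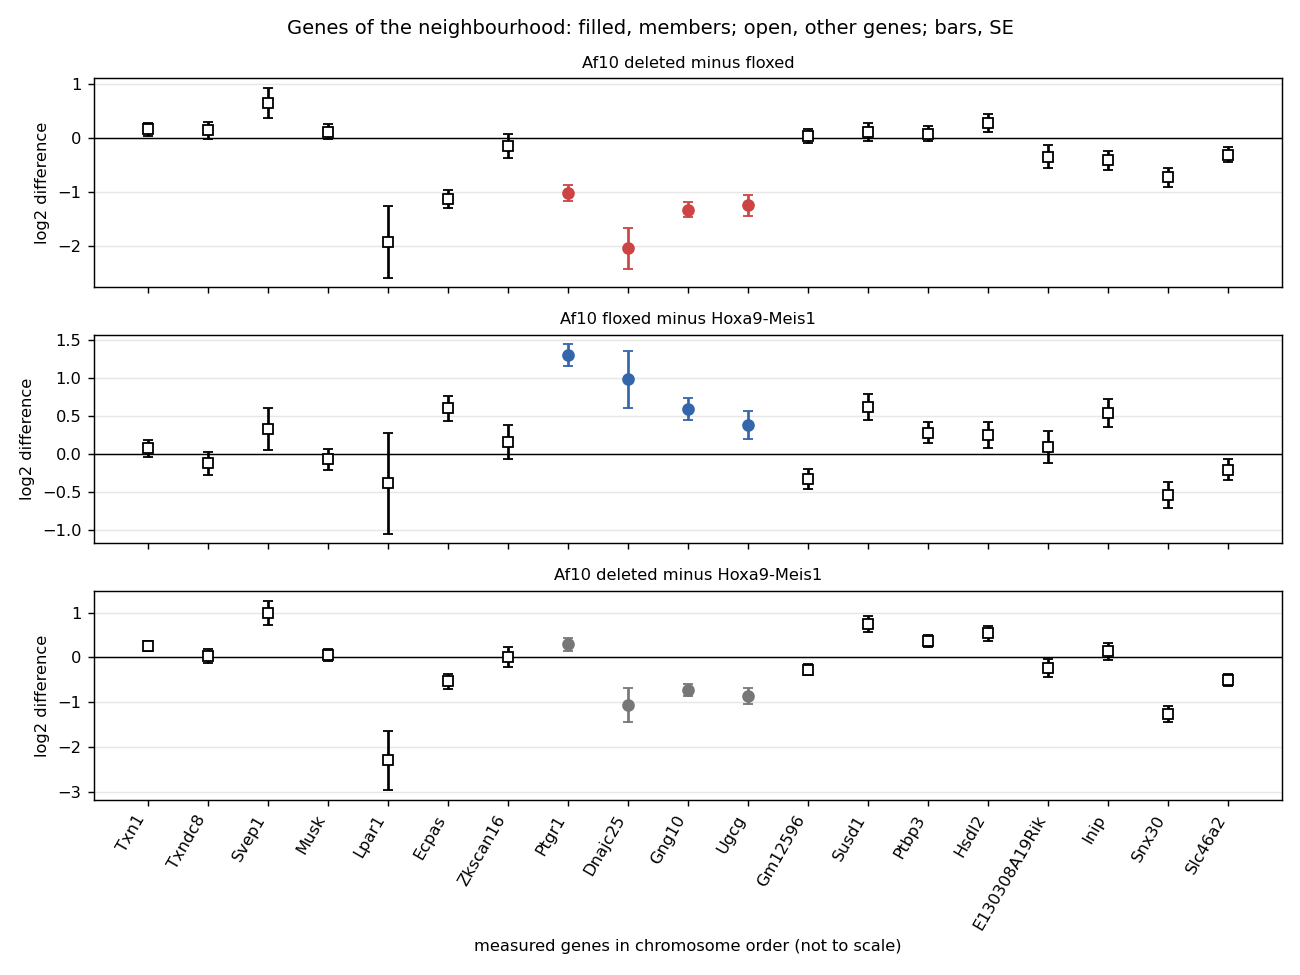
Log2 differences of the 19 measured genes of the neighbourhood in chromosome order (not to distance), each by its brightest probe set, in the 3 comparisons; filled points are the 4 members, open squares the other genes, and bars the SE. In the top panel Ecpas, at -1.13, lies at the level of the members, with Zkscan16, at -0.15 and dim in all 3 groups, between them.

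Within groups, the members were all on the same side of the group mean on 2 of the 9 arrays. Of the 7 probe sets 4 read Ugcg, and no such share over all genes was computed. In floxed replicate 5 all 7 probe sets were above the floxed mean, by 0.07 for Ptgr1, 0.14 for Gng10, 0.27 to 0.41 for Ugcg and 0.99 for Dnajc25. In floxed replicate 4 all 7 were below it, by between -0.06 for Gng10 and -0.40 for Dnajc25. In deleted replicate 4, 6 of the 7 were above the group mean, and in Hoxa9-Meis1 replicate 2 also 6. In deleted replicate 5 and Hoxa9-Meis1 replicate 3 the members were divided, 3 above and 4 below, and on the other 3 arrays 2 were above and 5 below. Ptgr1 was the exception in Hoxa9-Meis1 leukemias, highest in replicate 1 (0.23 above the mean), where Dnajc25, Gng10 and the brightest Ugcg probe set were lowest. Floxed replicate 5 also had the largest excess of the 3' over the 5' Gapdh control probe set, a gauge of RNA integrity, at 1.03 against 0.44 to 0.81 on the other arrays. By the Actb control probe sets the same measure was -0.37 on that array, within the -0.41 to -0.34 of the other arrays. The part of RNA integrity in these values was not tested. Without that array the median difference of the 4 genes between deleted and floxed leukemias was -1.18.

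**Figure D4:**
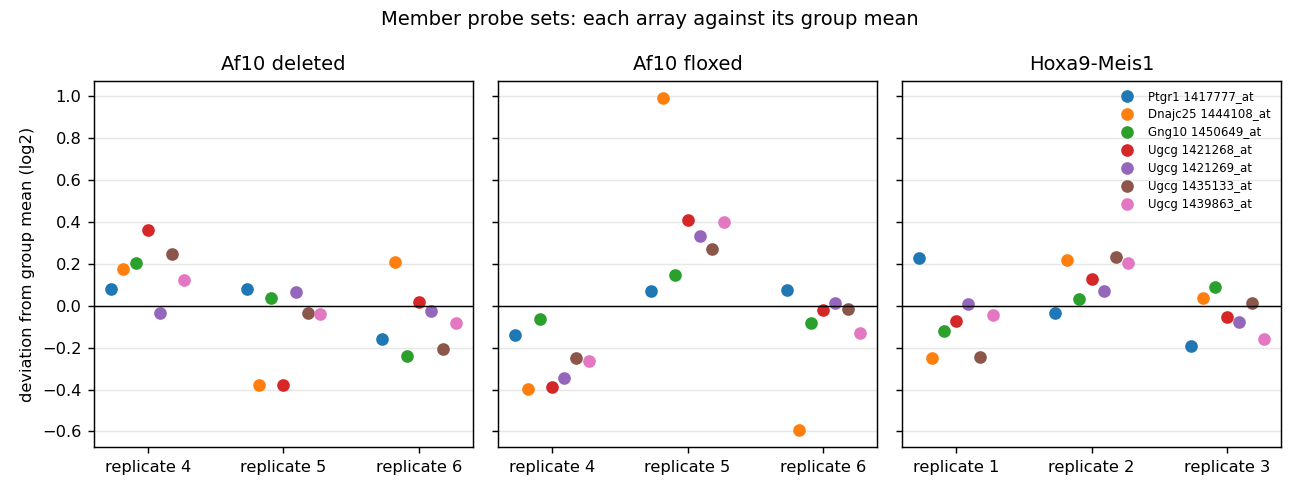
Deviation of each array from its group mean (log2) for the 7 member probe sets, by group and replicate; points are probe sets, coloured as in the key. All points of floxed replicate 5 lie above 0, with Dnajc25 at 0.99, and all points of floxed replicate 4 below 0.

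Among members, each by its brightest probe set, Gng10 and Ugcg had the most similar profiles. Likeness was measured as the root mean square (RMS) difference over the 9 arrays of log2 values centred on each gene's mean, with 18190 other genes compared. The distance between Gng10 and Ugcg was 0.15, and 0 of the other genes were nearer to either, although 6 of the 9 arrays had also served to choose both. This holds for Ugcg probe set 1435133_at, whose floxed minus Hoxa9-Meis1 difference of 0.39 was the nearest to the 0.60 of Gng10. The other Ugcg probe sets read 0.26, 0.05 and -0.21 there, and their distances were not computed. Ptgr1 was at 0.46 from Gng10, with 1224 other genes nearer to Ptgr1, and at 0.54 from Ugcg, with 3623 nearer to Ptgr1. Dnajc25 was at 0.49 to 0.75 from the other members. Nearer than Dnajc25 were 14653 other genes to Ptgr1, 2305 to Gng10 and 2004 to Ugcg. Counted from Dnajc25, 860 other genes were nearer than Ptgr1, 55 nearer than Gng10 and 49 nearer than Ugcg.

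Outside the neighbourhood, the genes nearest to each member were as follows. Those nearest to Ptgr1 were Rhd (RMS 0.12), an erythrocyte blood group gene, Baz2b (0.17), a bromodomain protein gene, and Trim59 (0.18). Those nearest to Gng10 were Msrb2 (0.18), a methionine sulfoxide reductase gene, the transcription factor gene Foxp1 (0.19) and Cd5 (0.20). Those nearest to Ugcg were Gm2629 (0.17), Zfp398 (0.17) and Cryz (0.19), a quinone reductase gene. Those nearest to Dnajc25 were Panx1 (0.34), which forms membrane channels, Snn (0.35) and Med12l (0.35). For Rhd the group means were 7.17 in deleted, 8.27 in floxed and 7.13 in Hoxa9-Meis1 leukemias, the order of Ptgr1, and for Msrb2 they were 7.33, 8.56 and 7.98, the order of Gng10.

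The other genes of each member's pathway were read from lists, each gene by its brightest probe set. Of 49 measured genes of ceramide and glycosphingolipid metabolism besides Ugcg, 3 fell and 2 rose in deleted against floxed leukemias (16 had an unadjusted p under 0.05), with a median of -0.02 beside 0.06 for all genes. Of all genes, 3.46% fell and 2.92% rose. The list calls held in every fit that left out 1 array for B3gnt5 and Gltp. B3gnt5, the transferase that starts the lacto-series from the product of Ugcg's pathway, fell from 9.99 ± 0.34 to 5.76 ± 0.35 (18.7-fold, limma adjusted p = 2.86e-05). The deleted level of B3gnt5 was below that of Hba-a1 (6.26), so the size of this fall is uncertain. Gltp, a carrier of glycolipids between membranes, fell 1.84-fold (difference -0.88, limma adjusted p = 0.0115). Like Ugcg, both were lower in deleted leukemias than in Hoxa9-Meis1 (B3gnt5 by -4.74, limma adjusted p = 8.44e-06; Gltp by -0.78, limma adjusted p = 0.00977) and did not pass between floxed and Hoxa9-Meis1. B4galt5 (0.41) and St3gal5 (-1.28, with an SD of 0.98 in deleted leukemias), the genes of the next steps after Ugcg, did not pass (limma adjusted p = 0.459 and 0.203).

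Against Hoxa9-Meis1 leukemias, 8 genes of this list were lower and 5 higher in deleted leukemias (median -0.00), and 4 lower and 1 higher in floxed leukemias (median -0.03). Of all genes, 6.03% were lower and 8.9% higher in deleted leukemias, and 3.24% lower and 5.42% higher in floxed leukemias. Cerk, the ceramide kinase gene, was lower in both, 2.84-fold in deleted (limma adjusted p = 0.000677) and 2.23-fold in floxed leukemias (limma adjusted p = 0.0041). Sgms2, for a sphingomyelin synthase, was higher in both, by 1.03 (limma adjusted p = 0.00116) and 0.83 (limma adjusted p = 0.00583). These comparisons share the Hoxa9-Meis1 arrays.

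Of 29 measured genes of eicosanoid metabolism besides Ptgr1, 1 fell and 2 rose after deletion (3.46% and 2.92% of all genes), with a median of 0.10. The fall was that of Hpgd, the enzyme gene just before Ptgr1 in prostaglandin breakdown, from 13.06 ± 0.12 to 5.50 ± 1.01 (difference -7.56, limma adjusted p = 0.000245), and it held without any single array. The deleted level of Hpgd was below that of Hba-a1 (6.26), so the size of this fall is uncertain. Ptgr2, a further gene for a reductase of 15-oxo prostaglandins, averaged 10.40 ± 0.46 in deleted and 10.64 ± 0.26 in floxed leukemias (difference -0.24, limma adjusted p = 0.588). Against Hoxa9-Meis1, deleted leukemias had 5 genes lower and 4 higher (6.03% and 8.9% of all genes). Floxed leukemias had 2 lower and 0 higher (3.24% and 5.42%). Hpgd had the largest difference between deleted and Hoxa9-Meis1 leukemias (-6.53, limma adjusted p = 0.000261), also without any single array, whereas Ptgr1 did not pass there. Tbxas1, for thromboxane synthase, was lower in both, by -2.63 (limma adjusted p = 4.33e-05) and -2.18 (limma adjusted p = 0.00021). Ptges, for a prostaglandin E synthase, and Alox5, for the enzyme that starts leukotriene synthesis, were higher in deleted leukemias, by 1.87 (limma adjusted p = 0.00934) and 2.04 (limma adjusted p = 0.00807).

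Ptgr1 is also known as a target of Nrf2, the transcription factor of the antioxidant response. Of 22 measured genes of that pathway 0 passed in limma in deleted against floxed leukemias, and 4 had an unadjusted p under 0.05. Of all genes, 3.46% were called lower and 2.92% higher there. Nfe2l2, the gene of Nrf2, was at 10.25 ± 0.24 in deleted, 9.58 ± 0.61 in floxed and 10.58 ± 0.16 in Hoxa9-Meis1 leukemias and passed in no comparison. In floxed against Hoxa9-Meis1 leukemias 0 genes of the pathway were higher and 2 lower (5.42% and 3.24% of all genes), and 6 had an unadjusted p under 0.05. The lower were Gclm, a subunit gene of the first enzyme of glutathione synthesis (difference -0.67, limma adjusted p = 0.00889), and Ugdh (-0.54, limma adjusted p = 0.0109). In deleted against Hoxa9-Meis1 leukemias 4 were lower and 3 higher (6.03% and 8.9% of all genes), and 12 had an unadjusted p under 0.05. The part of Nrf2 in the Ptgr1 values was not tested.

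Of 15 measured beta and gamma subunit genes besides Gng10, 1 fell and 0 rose after deletion (3.46% and 2.92% of all genes), 1 was higher and 0 lower in floxed leukemias than in Hoxa9-Meis1, and 1 was higher and 1 lower in deleted leukemias than in Hoxa9-Meis1. These 4 calls did not hold in every fit that left out 1 array. Gng2 (-1.09, limma adjusted p = 0.184) and Gng12 (-1.21, limma adjusted p = 0.0959), further gamma subunit genes, had differences after deletion near that of Gng10, but with an SD in deleted leukemias of 0.59 and 0.90 against 0.22 for Gng10. Gnb1, a beta subunit gene, was at 12.44 ± 0.04 and 12.48 ± 0.11. Of 25 alpha subunit and effector genes, 1 fell and 2 rose after deletion, none of them in every fit that left out 1 array. Against Hoxa9-Meis1 leukemias 4 of the 25 were lower and 0 higher in floxed leukemias (3.24% and 5.42% of all genes), and 3 were lower and 5 higher in deleted leukemias (6.03% and 8.9%). Gna14, an alpha subunit gene, was lower than in Hoxa9-Meis1 leukemias in floxed (difference -2.53, limma adjusted p = 0.00499) and deleted leukemias (-3.18, limma adjusted p = 0.00096).

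In DnaJ family C, 1 of 27 measured genes besides Dnajc25 fell after deletion and 0 rose (3.46% and 2.92% of all genes), with a median of 0.01. The gene that fell was Dnajc10, a chaperone partner of the endoplasmic reticulum, from 11.12 ± 0.45 to 9.79 ± 0.09 (2.52-fold, limma adjusted p = 0.00856), also without any single array. It was lower in deleted leukemias than in Hoxa9-Meis1 too (difference -2.00, limma adjusted p = 0.000566). In floxed against Hoxa9-Meis1 leukemias 3 genes of the family were higher and 1 lower (5.42% and 3.24% of all genes). None of these calls held in every fit that left out 1 array. In deleted against Hoxa9-Meis1 leukemias 2 were higher and 2 lower (8.9% and 6.03% of all genes). The higher were Dnajc14 (0.77, limma adjusted p = 0.00729) and Dnajc5 (0.59, limma adjusted p = 0.00783).

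Markers of the labelled cells were present: all 8 myeloid markers measured, among them Ptprc, Spi1, Itgam and Mpo, lay above background, with Mpo at 13.85 in deleted, 13.87 in floxed and 14.19 in Hoxa9-Meis1 leukemias. In deleted against floxed leukemias 0 of these 8 passed in limma and 3 had an unadjusted p under 0.05. Of all genes, 3.46% were called lower and 2.92% higher in that comparison. An unadjusted p under 0.05 was frequent in the pathway lists as well, from 4 of 22 Nrf2 pathway genes to 6 of 15 beta and gamma subunit genes. Its share over all genes was not computed, so the unadjusted counts of the marker lists have no full background. Beside the lower member values in deleted leukemias, 1 of 6 T and NK cell markers was higher (Cd3e, 7.77 against 6.84, limma adjusted p = 0.00343) and 5 of 6 had an unadjusted p under 0.05. The summed intensity of that list was 705 to 764 in deleted and 452 to 533 in floxed leukemias, and the group means of Ncr1 were within background. Of 6 B cell markers 1 was lower (Cd79b, 9.12 against 9.87, limma adjusted p = 0.00613) and 5 had an unadjusted p under 0.05, in both directions. The median difference of the B cell list was 0.29, with Cd79a at 0.86, Ms4a1 at 0.64, Pax5 at 0.39 and Ebf1 at 0.20, none past the threshold, and Vpreb1 at -2.41 (limma adjusted p = 0.127). Its summed intensity of 1302 to 1462 in deleted against 2054 to 3402 in floxed leukemias thus went against its median. Of 6 macrophage markers 1 was higher (C1qc, 6.56 against 5.72, limma adjusted p = 0.041) and 3 had an unadjusted p under 0.05, with a summed intensity of 1372 to 2949 against 1227 to 2132. Of 5 erythroid, 4 megakaryocyte, 7 neutrophil and 7 stromal and endothelial markers 0 passed, and 0 had an unadjusted p under 0.05. The calls of Cd3e and Cd79b held whichever array was left out, and that of C1qc only without deleted replicate 5 or floxed replicate 6 (limma adjusted p up to 0.127 in the other 7 fits). Against Hoxa9-Meis1, 2 of the 8 myeloid markers were higher in deleted leukemias whichever array was left out, Cd33 (1.63, limma adjusted p = 0.00583) and Csf2rb (0.74, 0.00241). In floxed leukemias Cd33 was higher (1.40, limma adjusted p = 0.0183) and Cebpa lower (-1.13, 0.0203), each in 5 of the 9 fits that left out 1 array. Of all genes, 8.9% were called higher and 6.03% lower in deleted, and 5.42% and 3.24% in floxed leukemias. Beside the member calls against Hoxa9-Meis1, markers of other cells also passed. In deleted against Hoxa9-Meis1 leukemias 2 T and NK cell markers, 1 B cell, 1 erythroid and 1 stromal marker were higher, and of the macrophage markers 1 was higher and 1 lower. Of these, the call of Cd3e (difference 1.02, limma adjusted p = 0.000983) held whichever array was left out. In floxed against Hoxa9-Meis1 leukemias 1 B cell marker was higher, Cd79b (difference 0.45, limma adjusted p = 0.039), a call lost in 8 of the 9 fits that left out 1 array. Of the macrophage markers 1 was lower, Vcam1 (difference -2.20, limma adjusted p = 0.00467), whichever array was left out. The summed macrophage intensity was 3739 to 4813 in Hoxa9-Meis1 leukemias, above both MLL-AF9 groups. Vcam1 was the brightest of that list there (11.58 ± 0.28, with Adgre1 next at 9.70 ± 0.15) and weighs most in the sum. The list was not of 1 direction: in floxed minus Hoxa9-Meis1, C1qa, C1qb and C1qc stood at 0.12, 0.16 and 0.06. Adgre1 stood at -0.42 and Mrc1 at -0.84, and none of these 5 passed. The part of these cell types in the member values was not tested.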

How the data were processed

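The 9 one-colour arrays were analysed in 3 groups of 3. The authors deposited 1 intensity per probe set and array, made with RMA per the submitters' processing notes, a method that normalizes arrays to a shared distribution, from 100 ng of RNA per the labels' protocols. For its software, version and any genome build the entry is: not given in the sources used here. The intensities are on a linear scale, so log2(value + 1) was taken, which makes changes of dim probe sets look slightly smaller. Such normalization would remove a change of most genes in 1 direction. The number of arrays limits the precision.

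All 45101 probe sets were fitted on all 9 arrays in a group-means model with limma 3.58.1 in R 4.3.3, two-sided, with Benjamini-Hochberg adjustment over all probe sets and calls at an adjusted p under 0.05. Names came from the platform annotation, in which 34958 probe sets had 1 symbol, 932 several and 9211 none. For each of 18194 genes the brightest probe set (highest average of the 9 arrays) stood for the gene, and other probe sets of list genes were not used. Gene order came from the RefSeq table of GRCm38.p6.

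Members, lists and tests were chosen with earlier results of these data known. Named were all members, measured neighbours, the 3 genes nearest to each member, and called list genes of the largest difference, of which mainly those held without any single array are given, besides a few chosen for their role or after their values were seen (Ptgr2, B4galt5, St3gal5, Nfe2l2, Gng2, Gng12, Gnb1). The pipeline was tested on simulated data for the deleted versus floxed comparison over 45101 probe sets: 46% of 100 changes of 1 log2 unit and 90% of 100 changes of 2 were recovered. Alternatives are described with the closing observations.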

Additional observations from a re-analysis of the deposited data

How the results depend on the processing

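The difference of each member between deleted and floxed leukemias kept its sign in all fits run, and the median of the 4 genes ranged from -1.39 to -1.17 when 1 array was left out. A pseudocount of 32 moved 1439863_at of Ugcg to -0.88 from -1.24. The count of member probe sets called between floxed and Hoxa9-Meis1 leukemias was 1 to 2 without single arrays (2 in all), and between deleted and Hoxa9-Meis1 leukemias 4 to 6 (5 in all). With 1 probe set per gene the latter was 2, since only 4 member probe sets were then tested. The sign for 1421269_at of Ugcg between floxed and Hoxa9-Meis1 turned to -0.0037 with repeated quantile normalization and -0.0231 with array weights, and ran from -0.12 (without floxed replicate 5) to 0.22 when 1 array was left out. Counts of all probe sets called moved more: between deleted and floxed leukemias they were 2779 in all, 1735 in a fit of those 2 groups alone, 1246 with 1 probe set per gene, 1180 when blocking on the replicate number (replicate block), and 1344 to 2718 without single arrays. Between floxed and Hoxa9-Meis1 they were 4064 in all, 1618 with 1 probe set per gene and 1725 to 4106 without single arrays, and between deleted and Hoxa9-Meis1 6770, 2821 and 3864 to 7285. Array weights raised the counts to 5675 between floxed and Hoxa9-Meis1 and to 9270 between deleted and Hoxa9-Meis1. The cause of these moves was not tested, other than that fewer probe sets or arrays enter some fits. Of 624 alternative counts of list genes 474 stayed within 1.5 times the main count, 114 were lower and 36 higher. Between deleted and floxed arrays, correlations of deviations from the group means were 0.03 to 0.05 for same-numbered arrays and -0.12 to 0.07 for differently numbered arrays. Not every array correlated best with its own number. Whether the shared replicate numbers pair the arrays cannot be decided from these values, since the deviations within a group are few and depend on one another. With the replicate block, 1 of the 4 Mllt10 probe sets (limma adjusted p = 0.0361) and 1 of the 4 Ecpas probe sets (0.0248) passed between deleted and floxed leukemias, Snx30 did not (0.155), and the calls of B3gnt5, Gltp, Hpgd and Dnajc10 held.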

Other observations

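The members could be compared with one another on each array, a choice made after their values were seen. The log2 level of Ptgr1 minus that of Gng10 was -0.14 to 0.10 in floxed, 0.13 to 0.34 in deleted and -1.04 to -0.42 in Hoxa9-Meis1 leukemias. That of Ptgr1 minus Ugcg, by its brightest probe set, was 2.42 to 2.73 in floxed, 2.68 to 2.96 in deleted and 1.43 to 2.17 in Hoxa9-Meis1 leukemias. For both pairs the Hoxa9-Meis1 arrays did not overlap either MLL-AF9 group (exact permutation p = 0.1, two-sided, the smallest that 3 arrays against 3 allow, and 0.24 adjusted over the 12 such comparisons of 6 pairs). That of Gng10 minus Ugcg, again by its brightest probe set, was 2.55 to 2.86 in floxed, 2.55 to 2.67 in deleted and 2.26 to 2.59 in Hoxa9-Meis1 leukemias, with overlap between every pair of groups. The other Ugcg probe sets were not compared in this way and may differ.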
